A study of Homo sapiens with 2 samples.

Results

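The MYC network is a family of transcription factors of the basic helix-loop-helix leucine zipper type that bind the same DNA word, the E-box CACGTG, and compete for it. MYC, MYCN and MYCL activate genes of growth and division as dimers with MAX, whereas MXD1, MXI1, MXD3, MXD4 and MNT take MAX as their own partner and recruit SIN3 and histone deacetylases to repress such genes. MLX is a MAX-like hub that pairs with the glucose-sensing factors MLXIP (MondoA) and MLXIPL (ChREBP) as well as with some MXD proteins and MNT. In squamous epithelium MYC is known from the dividing basal layer, and MXD1 from cells that leave the cycle to differentiate.

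These 10 genes were followed on 2 Affymetrix U133 arrays of Ca9-22 cells, an established human line of gingival squamous carcinoma. One array held RNA of cells given a PTHLH vector, to over-express parathyroid hormone-like hormone, and the other RNA of cells given the empty vector. Both were lentiviral infections kept in blasticidin for selection, and each array is 1 RNA sample of a selected population. All probe sets whose symbol in the platform annotation is one of the 10 genes were taken, and they numbered 31 of 54675 for 9 of the 10 genes. The rule lists the genes by name and uses no measured value. MXD4 had no probe set of its own, since the 3 that carry its symbol also carry that of the microRNA gene MIR4800. MYC, MXI1 and MXD3 had 1 probe set each, MYCL and MNT 2, MXD1 3, MAX 5, MLX 6 and MYCN 10.

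The values are intensities in arbitrary units, with a median over all probe sets of 19.4 on the PTHLH array and 19.5 on the empty vector array. A probe set below both medians is called dim here. With 1 array per condition there is no spread between cultures, no test and no p-value. The number of arrays sets the limit of precision. The only internal error is the spread between probe sets of one gene, which had an SD of 0.23 per log2 difference (10523 genes) and covers differences between probes only. In such bulk RNA a change in the share of cells that make a transcript and a change of its amount per cell cannot be told apart. The labels' description field gives CX-1 cells and RAB3C instead, against the titles and characteristics, which were followed. Of 10 squamous epithelial markers 7 were measured, all above both medians, with a summed intensity of 41757 on the PTHLH array and 38957 on the empty vector array, and KRT5 had 10228 and 7823. Of 10 colon markers 9 were measured, 6 of them above both medians, with a sum of 271 on the PTHLH array and 293 on the empty vector array and no single marker above 89.3 and 74.8. Of these colon markers 7 were lower on the PTHLH array, 1 was higher and 1 held the same value, with a median log2 difference of -0.17. GPA33, above both medians, had 31.0 and 49.1 (-0.66), and it alone was at least 1.5-fold lower (3.52% of all genes). Of 9 fibroblast markers 4 were above both medians, and their summed intensity was 1789 on the PTHLH array and 2570 on the empty vector array, most of it COL1A1 with 1652 and 2437 (a log2 difference of -0.56). Of these 9 markers 5 were higher on the PTHLH array and 4 lower, with a median log2 difference of 0.14, and FAP, below both medians, had 0.61. Leukocyte markers were above both medians for 3 of 8 genes, none above 59.8 and 51.1. The part of these markers in the results below was not tested.

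The E-box also lies in promoters of the network's own genes. RefSeq promoters (build GRCh38.p14, 250 bases before to 50 after a start) were at hand for 9 of the 10 genes, all but MYC, and CACGTG, which reads the same on both strands, was found in a promoter of MNT, MLX and MXD4, that is in 3 of 12 promoters of the members and in 7.26% of all 35116 promoters. A match is a run of letters and no measurement of binding. The windows of the 3 members are shown because these are the factors that read the word, and those of SRM, ODC1, ARRDC4 and TXNIP because these target genes were past 1.5-fold on the arrays. Capitals mark CACGTG, and for TXNIP a pair of near E-boxes of the form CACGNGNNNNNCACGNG, searched on both strands and found in 20 of all promoters (0.0570%). NME1, another such target, also holds the word in a promoter, and its window is not shown. The ODC1 window belongs to the downstream one of its 2 starts. All windows stand upstream of the start, on the gene's strand, 5′ to 3′.
MNT, chr17:2401221-2401280, minus strand: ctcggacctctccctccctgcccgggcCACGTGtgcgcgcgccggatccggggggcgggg
MLX, chr17:42567023-42567082, plus strand: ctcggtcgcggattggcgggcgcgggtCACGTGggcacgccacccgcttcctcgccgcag
MXD4, chr4:2262300-2262359, minus strand: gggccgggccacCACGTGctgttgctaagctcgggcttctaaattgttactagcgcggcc
SRM, chr1:11060185-11060244, minus strand: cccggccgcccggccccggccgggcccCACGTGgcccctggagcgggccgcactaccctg
ODC1, chr2:10448024-10448053, minus strand: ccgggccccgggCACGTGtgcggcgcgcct
ARRDC4, chr15:97960466-97960525, plus strand: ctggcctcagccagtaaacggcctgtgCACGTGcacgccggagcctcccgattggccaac
TXNIP, chr1:145996630-145996689, minus strand: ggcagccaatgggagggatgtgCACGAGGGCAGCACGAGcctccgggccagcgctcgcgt
The word began 193 bases before the start in MNT, 50 in MLX and 238 in MXD4, and 199 in SRM, 29 in ODC1 and 210 in ARRDC4, while the pair in TXNIP began 88 bases before it.

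No member of the network reached a 1.5-fold difference on the PTHLH array in either direction, the threshold that the study used for its signature. This holds for the 31 probe sets, against 1.81% of all probe sets at least 1.5-fold higher and 2.65% at least 1.5-fold lower, and for the 9 genes by their brightest probe set, against 1.97% of 19775 genes higher and 3.52% lower. These shares are small for all features as well, so the count of 0 does not set the network apart. Of the 31 probe sets 18 were higher on the PTHLH array, 9 were lower and 4 held the same value on both arrays. The log2 differences, PTHLH minus empty vector, ran between -0.27 and 0.56 with a median of 0.08, against a median of 0 over all probe sets. The size of the difference without its sign had a median of 0.14 over the members and 0.16 over all probe sets, and of 0.13 and 0.18 over those above both medians, of which 17 were of the network. Of the members 6 differed by more than the SD of 0.23 between probe sets, against 34.6% of all probe sets.

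Among the activating factors, MYC was well above the array medians, at percentile 93.2 of the PTHLH array and 92.6 of the empty vector array. Its only probe set had an intensity of 411 on the PTHLH array and 374 on the empty vector array, a log2 difference of 0.14 (1.10-fold). That is smaller than the SD between probe sets, and 58.0% of all genes differed by more. The probe set carries the suffix s, which Affymetrix gives to probe sets that can bind several transcripts.

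MYCL, the family member first found in small cell lung cancer, had 47.8 on the PTHLH array and 44.2 on the empty vector array by its brighter probe set, a log2 difference of 0.11. Its other probe set had 38.8 on the PTHLH array and 46.9 on the empty vector array, a log2 difference of -0.27. The pair therefore disagreed on the direction, and both were modestly above the medians.

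MYCN, the family member of neuroblastoma, was dim on nearly all of its probe sets. Its brightest had 21.5 on the PTHLH array and 23.4 on the empty vector array, just above the medians, a log2 difference of -0.13. The other 9 had between 3.65 and 17.6 on the PTHLH array and between 3.81 and 17.6 on the empty vector array, all below both medians. Over the 10 probe sets the log2 differences ran between -0.16 and 0.27, 5 above 0, 3 below 0 and 2 with the same value on both arrays, so no direction was shared. At such levels a small step of intensity makes a large ratio.

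MAX, the partner that MYC and MXD proteins share, had 545 on the PTHLH array and 482 on the empty vector array by its brightest probe set, a log2 difference of 0.18 (1.13-fold). The next had 132 on the PTHLH array and 115 on the empty vector array, a log2 difference of 0.20. Those 2 bright probe sets gave nearly the same small difference. The 2 with the suffix x, which marks probes that can bind unrelated sequences, had 31.2 and 24.4 on the PTHLH array and 32.04 and 25.9 on the empty vector array, log2 differences of -0.04 and -0.08. The dim one had 12.3 on the PTHLH array and 10.02 on the empty vector array (0.29).

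MLX had the widest spread among its own probe sets of all members. The brightest had 456 on the PTHLH array and 427 on the empty vector array, a log2 difference of 0.10, and the next 281 on the PTHLH array and 246 on the empty vector array (0.20). Another had 115 on the PTHLH array and 114 on the empty vector array (0.02), so the 3 bright ones stayed within 0.20. The probe set 210752_s_at had 38.9 on the PTHLH array and 26.5 on the empty vector array, a log2 difference of 0.56 (1.47-fold), which is the largest of the network and just inside the threshold. Of the remaining pair, one held 27.9 on both arrays and the dim one had 11.7 on the PTHLH array and 13.9 on the empty vector array (-0.25). The difference of 210752_s_at was thus not shared by any brighter probe set of the gene.

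The repressors of the network, which take MAX away from MYC, were as flat. MNT, a widely expressed partner of MAX, had 578 on the PTHLH array and 541 on the empty vector array, a log2 difference of 0.10, and its dim probe set had 9.04 on the PTHLH array and 7.88 on the empty vector array (0.20). MXD3, the repressor known from S phase of mouse cells, had 461 on the PTHLH array and 453 on the empty vector array, a log2 difference of 0.03 (1.02-fold), and 90.5% of all genes differed by more. MXI1, also called MXD2, was lower on the PTHLH array, with 517 on the PTHLH array and 573 on the empty vector array, a log2 difference of -0.15. All 3 were far above the medians, and none of their bright probe sets differed by more than the SD of 0.23 between probe sets.

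MXD1, the repressor that rises in differentiating keratinocytes, had the largest gene-level difference, but close to the array medians. Its brightest probe set had 29.3 on the PTHLH array and 24.0 on the empty vector array, a log2 difference of 0.29 (1.22-fold). The other 2 were dim and did not share it. One had 12.5 on the PTHLH array and 13.0 on the empty vector array (-0.06), and the other held 9.04 on both.

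By the brightest probe set 7 of the 9 genes were higher on the PTHLH array and 2 lower, with a median log2 difference of 0.10, against 0 over all genes, of which 48.5% were above 0. By role the median was 0.11 for the 3 MYC proteins, 0.14 for MAX and MLX, and 0.06 for the 4 measured repressors. MGA, a large protein that pairs with MAX, had 33.2 on the PTHLH array and 36.6 on the empty vector array (a log2 difference of -0.14), but its probe sets above the medians ran between -0.25 and 0.27. MLXIP, the MLX partner MondoA, had 852 on the PTHLH array and 815 on the empty vector array (0.06), the lowest of its 4 probe sets, which reached 0.30. MLXIPL, the partner ChREBP, had 44.7 on the PTHLH array and 53.4 on the empty vector array (-0.26).

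The proteins that work with the network were given from lists of other genes, of which no member is one of the 10. Of 12 coactivators of MYC, 11 were higher on the PTHLH array (48.5% of all genes), 1 of them at least 1.5-fold (1.97% of all genes), and none was at least 1.5-fold lower (3.52%). Their median log2 difference was 0.33, against 0 over all genes. The acetyltransferase CREBBP had 641 on the PTHLH array and 392 on the empty vector array (1.64-fold), KAT2A, the GCN5 acetyltransferase that MYC recruits, had 348 and 234 on those arrays (1.49-fold), and EP300 had 169 and 116 (1.46-fold). The 3 other CREBBP probe sets did not reach the threshold, the lowest with a log2 difference of 0.08, and the other EP300 probe set had 0.25. CREBBP is also named in the study's own pathway results from these arrays. Of 9 measured SIN3 and MIZ1 partners of the repressors, none was past 1.5-fold in either direction (1.97% of all genes higher, 3.52% lower) and the median was 0.04. The histone-binding proteins RBBP4 (373 on the PTHLH array and 280 on the empty vector array) and RBBP7 (544 and 424) had log2 differences of 0.41 and 0.36, and the corepressor SIN3B (274 and 341) had -0.32. For RBBP4 the 6 probe sets ran between -0.06 and 0.41.

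Among 13 measured regulators of MYC protein stability, 2 were at least 1.5-fold higher (1.97% of all genes), 1 was at least 1.5-fold lower (3.52% of all genes) and the median was 0.19. CIP2A, which shields MYC from the phosphatase PP2A, had 42.4 on the PTHLH array and 24.4 on the empty vector array (1.74-fold), and its dim probe set had a log2 difference of 0.64. The mitotic kinase AURKA, which binds and stabilises MYCN, had 865 on the PTHLH array and 577 on the empty vector array, right at the threshold (a log2 difference of 0.59), and 0.75 and 0.05 on the log2 scale by its other probe sets. The kinase PIM1, a target of STAT signalling that phosphorylates MYC, had 195 on the PTHLH array and 332 on the empty vector array, a log2 difference of -0.77 by its only probe set. PIM1 too is named in the study's own pathway results from these arrays. The regulators that were higher and the one that was lower thus both include kinases that are known to stabilise MYC proteins.

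Genes that the network is known to control did pass the threshold in part. On the PTHLH array 5 of 27 measured textbook targets that MYC activates were at least 1.5-fold higher (18.5%, against 1.97% of all genes), none was at least 1.5-fold lower (3.52% of all genes), 19 were above 0 and the median log2 difference was 0.23. NME1, a nucleoside diphosphate kinase, had 1700 on the PTHLH array and 917 on the empty vector array (1.85-fold). SRM, the spermidine synthase, had 442 on the PTHLH array and 244 on the empty vector array (1.81-fold). ODC1, the first enzyme of polyamine synthesis, had 493 on the PTHLH array and 315 on the empty vector array (1.57-fold). Each of these 3 genes has a single probe set here, so no second one bears on its value.

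CAD, which starts pyrimidine synthesis, had 304 on the PTHLH array and 201 on the empty vector array (1.52-fold), but its dim probe set had the same value on both arrays. CDC25A, the phosphatase that activates CDK2, had 41.9 on the PTHLH array and 26.0 on the empty vector array (1.62-fold). Only 1 of its 3 probe sets was above both medians, and the lowest log2 difference among them was 0.23. The study picked CDC25A on these same arrays, and also reported its mRNA as raised by PTHLH over 3 independent experiments. The list itself was chosen with earlier results of these data known. Its counts are therefore not independent evidence of a direction. Other targets were close to level by the brightest probe set, such as the nucleolar proteins NPM1 (0.10) and FBL (0.05) and the transferrin receptor TFRC (-0.06), each given as a log2 difference. The 3 probe sets of NPM1, all above both medians, ran between 0.02 and 0.50. ODC1, NME1 and SRM hold the E-box in a promoter, and CAD and CDC25A do not. Among the measured genes of the list with a RefSeq promoter, 3 of 11 with the E-box were at least 1.5-fold higher with a median of 0.25, and 2 of 12 without it with a median of 0.25. Counts this small cannot show whether the word divides the list. An E-box outside these short promoters was not searched for.

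Of 12 textbook genes that MYC represses, 1 was at least 1.5-fold lower (3.52% of all genes), none was at least 1.5-fold higher (1.97% of all genes), and the median was -0.22. A count of 1 in 12 does not set the list apart. CDKN1A, the CDK inhibitor p21, had 1339 on the PTHLH array and 2065 on the empty vector array (a log2 difference of -0.62), and it too is among the molecules the study picked on these arrays. CDKN2B, the inhibitor p15, had 93.3 on the PTHLH array and 139 on the empty vector array (-0.58), just inside the threshold, and its dim probe set had 0.18. NDRG1, a stress and differentiation gene, had 2253 on the PTHLH array and 3005 on the empty vector array (-0.42). The clusterin gene CLU had 3826 on the PTHLH array and 3142 on the empty vector array (0.28). The 3 CLU probe sets above both medians ran between 0.28 and 1.03, the highest of them past 1.5-fold. The list thus did not lie on one side, with 7 of its genes below 0, 4 above and 1 at 0.

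The targets of MLX with MondoA or ChREBP were split. Of 9 measured genes 2 were at least 1.5-fold lower (3.52% of all genes), none was at least 1.5-fold higher (1.97% of all genes), and the median was -0.05. ARRDC4, an arrestin-like protein that lowers glucose uptake, had 67.9 on the PTHLH array and 143 on the empty vector array, a log2 difference of -1.08 and the largest of the lists of partners and targets. TXNIP, its relative that binds thioredoxin and also restrains glucose uptake, had 664 on the PTHLH array and 1177 on the empty vector array (-0.83), and its 3 probe sets, all above both medians, ran between -0.83 and -0.65. These are the genes best known to follow MondoA and MLX, whose own differences by the brightest probe set were 0.06 and 0.10. ARRDC3 of the same family had 47.2 on the PTHLH array and 48.7 on the empty vector array (-0.05).

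The metabolic targets of that list went both ways. FASN, the fatty acid synthase, had 2270 on the PTHLH array and 3318 on the empty vector array (-0.55), but 0.20 by its dim probe set. The hexokinase HK2 had 43.7 on the PTHLH array and 30.3 on the empty vector array (0.53), with its 3 probe sets between 0.19 and 0.62. The glucose transporter SLC2A1 had 1107 and 962 on those arrays (0.20). Apart from TXNIP and ARRDC4 the list therefore stayed within 1.5-fold by the brightest probe set.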

How the data were processed

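Total RNA of Ca9-22 cells with a PTHLH vector and with an empty vector was hybridised by the authors to Affymetrix U133 arrays, 1 for each. They deposited 1 linear intensity for every probe set. How the scans were corrected for background, normalized and summarised was not stated in the sources read for this work, and these steps bear most on dim probe sets. Across probe sets the log2 values of both arrays had a Pearson r of 0.992.

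Groups follow the titles and characteristics of the labels. The log2 intensity on the empty vector array was subtracted from that on the PTHLH array, with no further normalization. Of the probe sets, 41097 carry 1 symbol in the platform annotation, 1801 carry several and 11777 are unnamed here. Only the first kind was used, with symbols checked against GRCh38.p14 gene identifiers. A gene was represented by its brightest probe set, and a difference of at least 1.5-fold was counted. No test was run. No scan batch is named in the labels. The counting code was tested on simulated data with planted differences well past the threshold and little noise. That checks the code and does not bear on differences near the threshold. The members and lists were chosen with earlier results of these data known, from textbook knowledge. All member probe sets are described. Of each further list, the 3 genes with the largest absolute difference above the median of at least 1 array are named. MGA, MLXIP and MLXIPL are all given. ODC1, CAD, NPM1, FBL, TFRC, CLU, ARRDC3, HK2, SLC2A1 and the markers KRT5, GPA33, COL1A1 and FAP were chosen after their values were seen. Alternatives were quantile normalization, centring, other ways to represent a gene, a filter and a floor on dim probe sets, dropping suffix x and s probe sets, and a 2-fold threshold. Python 3.11.15, pandas 2.3.3, numpy 2.4.6 and matplotlib 3.10.9 were used.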

Additional observations from a re-analysis of the deposited data

How the results depend on the processing

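No paired analysis was possible because each condition had 1 array. The count of member genes past 1.5-fold was 0 in both directions under every alternative run. Quantile normalization brought 1 member probe set past 1.5-fold, 210752_s_at of MLX, against 1.8% of all probe sets higher. Taking the probe set of largest change gave a log2 difference of 0.56 for MLX, -0.27 for MYCL and 0.27 for MYCN, and a median of 0.27 for MGA, MLXIP and MLXIPL. The median over probe sets gave 0 for MXD1, -0.08 for MYCL and 0.04 for MYCN. So MYCL and MYCN turned direction under both of these choices. Leaving out suffix x and s probe sets gave 0 for MLX. The counts of the further lists under these alternatives were added after seeing the data. With the largest change, 3 coactivators, 1 MYC-repressed gene and 1 MLX target were higher, against 3.48% of all genes. With the median over probe sets, 0 coactivators were higher (1.25% of all genes). Quantile normalization left 1 stability regulator higher (1.89%). Without suffix x or s, 0 MYC-repressed genes and 1 MLX target were lower (3.41%). At 2-fold, 1 MLX target was lower, and 0 stability regulators and MYC-repressed genes were (0.733%). At that threshold 0 MYC-activated targets, coactivators and stability regulators were higher (0.182%). The other values moved by less than 0.23 or stayed within 1.5 times, in 238 of 257 comparisons. Centring subtracted a median of 0, so its comparisons among the 238 were fixed in advance. The floor on dim probe sets changed none of the compared values either. A list median can shrink much within 0.23, and that of the MYC-repressed genes went from -0.22 to -0.06 without suffix x or s. Signal near or below the array medians limits MYCN and MXD1 most.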

Other observations

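The 3 probe sets that carry the symbols of both MXD4 and MIR4800 belong to no gene count above, since their signal cannot be given to one gene. They had 302, 268 and 274 on the PTHLH array and 298, 238 and 288 on the empty vector array. Their log2 differences were 0.02, 0.17 and -0.07, all smaller than the SD of 0.23 between probe sets of one gene.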
